A study of Mus musculus with 93 samples.

Results

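The VEGF and angiopoietin signaling genes described here were Kdr, Flt1, Flt4, Tek, Tie1, Vegfa, Vegfb, Vegfc, Angpt1 and Angpt2. They were chosen by name, not by their values, and were 10 of the 24528 genes in each of the deposited tables of cortical RNA. All 10 passed the filter on undetected genes at every age. In the vessel wall, endothelial cells carry the receptors and receive the ligands from neighbouring cells. Kdr encodes VEGFR2, the main receptor through which VEGF-A drives sprouting, Flt1 encodes VEGFR1, which binds VEGF-A and VEGF-B and can act as a decoy, and Flt4 encodes VEGFR3, the receptor of VEGF-C. Tek encodes TIE2, the receptor of the angiopoietins, and Tie1 its orphan partner. Angiopoietin 1, made largely by cells around the endothelium, activates TIE2 and steadies mature vessels, whereas angiopoietin 2, made by endothelial tip cells among others, can antagonise it during remodelling.

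The study sequenced polyadenylated RNA from 1 cortical hemisphere per mouse and asked how early exposure to deltamethrin (DM), a pyrethroid insecticide, and loss of 1 copy of Chd8, which encodes a chromatin remodeler linked to autism, act on the cortex. Heterozygous Chd8 V986*/+ mice (HET), which carry a truncating allele in every cell, were compared with wild-type (WT) littermates on the C57BL/6J background. The WT dams, mated with Chd8 heterozygous sires, ate DM at 3 mg/kg or the oil vehicle (oil) every 3 days from the start of gestation, so that all pups of a litter shared 1 exposure. At postnatal day (PND) 5 the groups were HET DM (10 pups), HET oil (10), WT DM (12) and WT oil (12), of both sexes, from 7 DM and 6 oil litters. At 12 months they were HET DM (10 mice), HET oil (9), WT DM (10) and WT oil (9), all male, with 1 HET and 1 WT mouse from each of 10 DM and 9 oil litters, exposed until PND 22. At 18 months they were HET (5) and WT (6) males that received neither DM nor vehicle. Some of these shared a litter, within or between genotypes, and others had no littermate of the other genotype. The reported fit at 18 months did not pair them and counted littermates as independent.

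Chd8 itself was lower in HET than in WT in all 19 litters of 12 months. Its log2 difference was -0.69 in DM and -0.61 in oil mice at 12 months, -0.46 in DM (limma adjusted p = 0.078) and -0.58 in oil pups at PND 5, and -0.51 at 18 months. All 7 listed markers of excitatory cortical neurons passed the filter on undetected genes, with a mean level of 11.48 to 12.01 at PND 5 and 12 months. Values are on a log2 scale after the variance-stabilizing transformation and after removal of technical terms, and they were shifted differently for each gene, so that levels can be compared between groups for a gene but not between genes, nor between the table of 18 months and that of the other ages. In bulk tissue, fewer vessel cells and less RNA per vessel cell cannot be told apart.

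The stretch of 250 bases before the transcription start is shown for the receptors Kdr, Flt1 and Tek. Their windows hold, in that order, a single, several and no match to the motif GGAAG. The sequences are those of RefSeq on GRCm38.p6, written 5′ to 3′ on the strand of the gene, with GGAAG and its reverse complement CTTCC in capitals. GGAAG is 1 form of the site bound by ETS factors, which in mouse endothelium act on many vessel genes, and other forms of that site, with the shorter core GGAA or with GGAT, were not searched.
Kdr: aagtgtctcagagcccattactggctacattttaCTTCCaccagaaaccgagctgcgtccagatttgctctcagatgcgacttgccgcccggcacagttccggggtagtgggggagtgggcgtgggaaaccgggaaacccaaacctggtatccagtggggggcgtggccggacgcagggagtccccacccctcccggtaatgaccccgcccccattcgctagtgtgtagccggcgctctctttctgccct
Flt1: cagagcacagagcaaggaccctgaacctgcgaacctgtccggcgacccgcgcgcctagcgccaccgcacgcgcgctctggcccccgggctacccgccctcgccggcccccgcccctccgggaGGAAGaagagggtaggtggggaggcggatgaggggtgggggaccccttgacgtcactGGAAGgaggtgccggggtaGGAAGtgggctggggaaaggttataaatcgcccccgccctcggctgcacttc
Tek: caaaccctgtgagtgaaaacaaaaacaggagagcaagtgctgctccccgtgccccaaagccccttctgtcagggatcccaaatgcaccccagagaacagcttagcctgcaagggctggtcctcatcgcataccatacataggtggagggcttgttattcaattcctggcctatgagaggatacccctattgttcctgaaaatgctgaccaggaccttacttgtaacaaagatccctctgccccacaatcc
The Kdr stretch lies at chr5:75978456-75978705 on the minus strand, the Flt1 stretch at chr5:147726012-147726261 on the minus strand and the Tek stretch at chr4:94739039-94739288 on the plus strand. The motif occurred 3 times before Flt1, 1 time before Kdr and not before Tek. It occurred 6 times in the stretch of Tie1 (chr4:118489850-118490099, minus strand), which is not shown because most of it lies inside the Tie1 gene of GENCODE M21. Over the whole genome 64.1% of 32851 stretches of the same length held it on either strand, so its presence is common, a match is no evidence of binding, and no match says only that these letters are not in the window. RefSeq stretches were matched for 8 of the 10 genes. In GENCODE M21 on mm10, Kdr spans chr5:75932827-75978458, Flt1 chr5:147561604-147726011, Tek chr4:94739289-94874976, Tie1 chr4:118471191-118490061, Vegfa chr17:46016993-46032369 and Angpt2 chr8:18690263-18741562.

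The first comparison asked whether DM altered these genes in pups that were still being exposed. At PND 5, Tie1 and Angpt2 were higher in DM than in oil pups of both genotypes when each pup was counted on its own. Neither passed the test once littermates were treated as alike. The other receptors lay in the same direction without passing, and the ligands Vegfa, Vegfb, Vegfc and Angpt1 differed little. In HET pups 2 of the 10 genes were called (limma, adjusted p under 0.05), against 1.02% of all genes tested. In WT pups 2 of 10 were called, against 4.56% of all genes.

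Tie1 had values of 9.43, 9.87 and 10.13 (lowest, median and highest) in HET DM pups, against 9.49, 9.59 and 9.72 in HET oil pups. The groups overlapped through 1 HET DM pup, and 1 of the 10 HET DM pups lay below the oil median. The difference was 0.27 (SE 0.073, limma adjusted p = 0.047). In WT DM pups the values were 9.80, 9.98 and 10.17, against 9.30, 9.73 and 9.96 in WT oil pups. These groups overlapped too, although none of the 12 WT DM pups lay below the oil median. The difference was again 0.27 (SE 0.067, limma adjusted p = 0.011).

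Because DM was given to the dam, the litter is the unit of exposure. The means of Tie1 over the 7 DM litters spanned 9.78 to 10.05 and those over the 6 oil litters 9.56 to 9.72, so that litters of the 2 exposures did not overlap. The same separation was found for 2.46% of all genes. Within the litters of dissector 1 (5 DM and 2 oil) the difference between DM and oil means was 0.26. Within those of dissector 2 (2 DM and 4 oil) it was 0.28. Exposure was uneven over the dissectors, so that each difference within a dissector at PND 5 rests on 2 litters on 1 side. An exact permutation test of litter means within dissectors gave p = 0.0032, the smallest that these 13 litters allow, and an adjusted p over all genes of 0.116. With litter as a random effect in limma the difference was 0.29 in HET pups (adjusted p = 0.424) and 0.26 in WT pups (adjusted p = 0.328). In that fit none of the 10 genes was called in HET pups, where 0% of all genes passed and 1347 had an unadjusted p under 0.05. None was called in WT pups either, where 0% of all genes passed and 1538 had an unadjusted p under 0.05. Of the 10 genes 3 in HET and 4 in WT pups were under 0.05 unadjusted, Tie1 and Angpt2 among them in each.

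**Figure D1:**
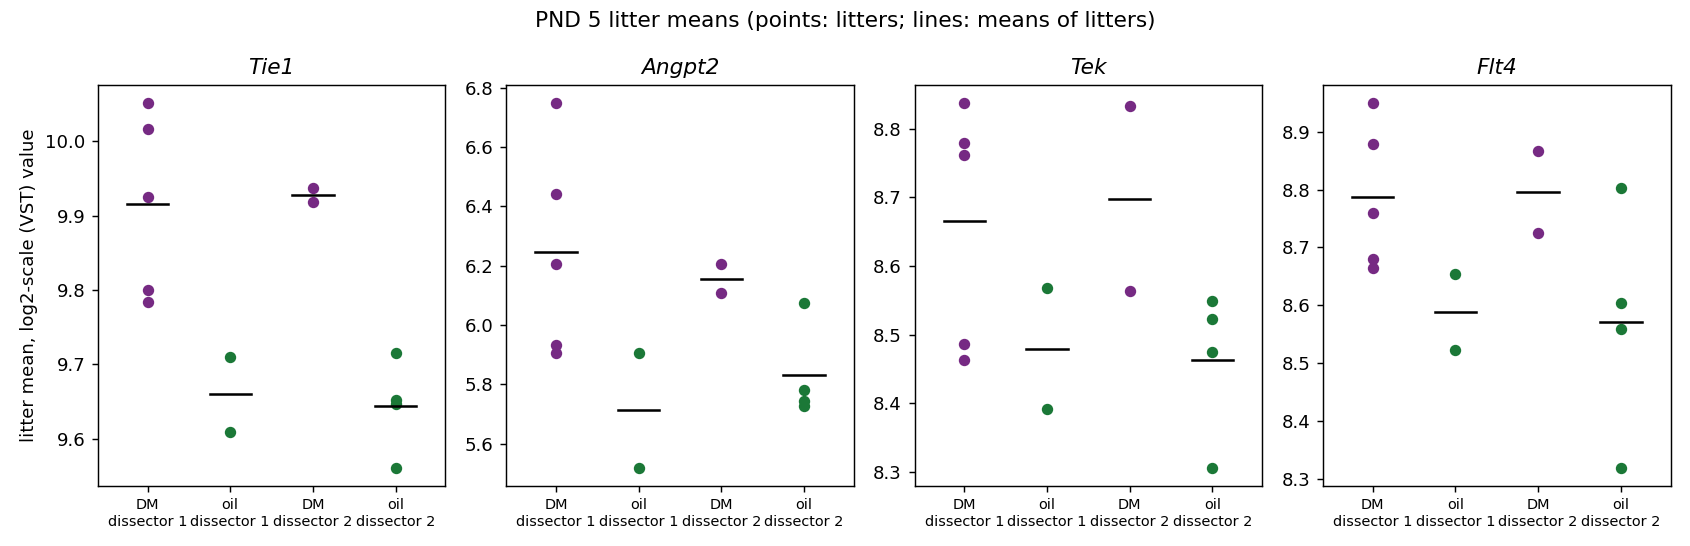
Litter means of Tie1, Angpt2, Tek and Flt4 at PND 5 (vertical axes, log2 scale after adjustment), each point 1 litter and each line the mean of litters, with DM left of oil for dissector 1 and then for dissector 2. For Tie1 the DM litters, at 9.78 to 10.05, all sit above the oil litters, at 9.56 to 9.72, whereas for Angpt2 the DM litters, at 5.91 to 6.75, overlap the oil litters, at 5.52 to 6.07.

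Angpt2 showed the largest difference of the 10 genes in both genotypes. It had values of 5.34, 6.21 and 6.70 in HET DM pups, against 5.16, 5.62 and 6.14 in HET oil pups. The groups overlapped, and the difference was 0.51 (SE 0.139, limma adjusted p = 0.049). In WT DM pups the values were 5.95, 6.24 and 6.90, against 5.55, 5.91 and 6.31 in WT oil pups. These groups overlapped as well, with a difference of 0.43 (SE 0.127, limma adjusted p = 0.033). With litter as a random effect the adjusted p was 0.429 in HET and 0.375 in WT pups. Litter means differed by 0.43 within dissectors (exact permutation p = 0.0127, adjusted over all genes 0.183), by 0.54 in litters of dissector 1 and by 0.33 in those of dissector 2.

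The receptors Flt4 and Tek came next. Flt4 had 8.53, 8.84 and 9.05 in WT DM pups, against 7.89, 8.65 and 8.97 in WT oil pups, and Tek had 8.49, 8.72 and 9.09 in WT DM pups, against 7.83, 8.58 and 8.69 in WT oil pups. Both pairs of groups overlapped. Flt4 differed by 0.23 (SE 0.075) and Tek by 0.24 (SE 0.078), each with a limma adjusted p of 0.062. In HET pups both differed by 0.18, with adjusted p of 0.257 for Flt4 and 0.283 for Tek. Kdr differed by 0.10 in HET and 0.15 in WT pups and Flt1 by 0.02 and 0.11, and neither passed the test. All 5 receptors thus had higher means in DM pups, although Flt1 in HET pups turned lower after quantile normalization, and Kdr in HET pups and Flt1 in both genotypes turned lower when each library was centred on its endothelial markers. Among the other ligands Vegfa differed by -0.07 in HET and -0.09 in WT pups, Vegfb by 0.06 and 0.03, Vegfc by -0.08 and 0.00, and Angpt1 by -0.08 and -0.02. The median over the 10 genes was 0.08 in HET and 0.13 in WT pups, against -0.01 over all genes in both.

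**Figure D2:**
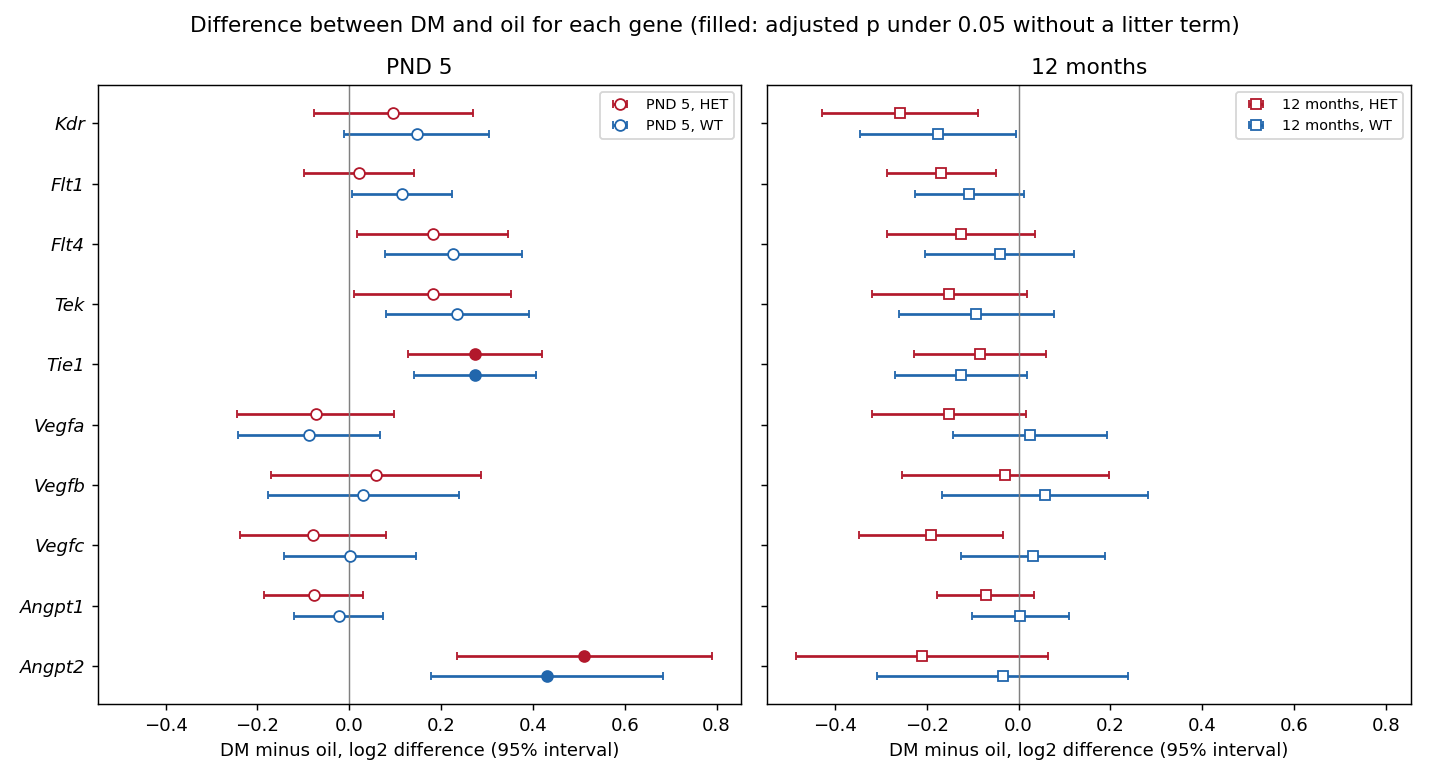
Log2 difference between DM and oil mice (horizontal axis, points with 95% intervals) for each gene at PND 5 and 12 months, HET above WT. Filled points mark Tie1 and Angpt2 at PND 5, the 2 genes with an adjusted p under 0.05 in limma without a litter term, and at 12 months all 5 receptors lie left of 0 in both genotypes with no filled point.

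Markers of other cells lay higher together with these genes at PND 5. Their calls are those of the fit without a litter term, in which 1.02% of all genes passed in HET and 4.56% in WT pups. With litter as a random effect 0% of all genes passed in either genotype, so none of the marker calls remained. Of 10 markers of meningeal fibroblasts, the cells of the membranes around the cortex, all 10 were higher in HET DM than in HET oil pups, with a median difference of 1.13 and 2 called, and all 10 were higher in WT DM than in WT oil pups, with a median of 1.34 and 9 called. All 10 passed the filter on undetected genes. Their mean level ranged between 3.73 and 8.13 in HET DM pups, 3.77 and 7.12 in HET oil pups, 5.40 and 8.38 in WT DM pups, and 4.51 and 7.03 in WT oil pups. Endothelial markers had a median difference of 0.13 in HET pups (22 of 24 higher, 1 called) and 0.12 in WT pups (21 of 24 higher, 3 called), and mural markers, those of pericytes and smooth muscle, of 0.21 (12 of 13 higher, 1 called) and 0.19 (13 of 13 higher, 4 called). The mean level of the endothelial list ranged between 7.17 and 7.59 in HET DM, 7.22 and 7.48 in HET oil, 7.41 and 7.74 in WT DM and 7.25 and 7.59 in WT oil pups. Several lists of cells outside the vessels also lay higher. For blood the group median of the mean level was 7.33 in HET DM and 7.12 in HET oil pups, and 7.35 and 7.15 in WT pups. For choroid plexus it was 5.02 in DM and 4.84 in oil pups of either genotype. For excitatory neurons it differed little, at 11.76 and 11.78 in HET and 11.81 and 11.79 in WT pups. Markers of striatum, the region under the cortex, had a median difference of 0.37 in HET pups (6 of 6 higher, 2 called) and 0.12 in WT pups (6 of 6 higher, none called), with mean levels between 7.86 and 8.41 in HET DM, 7.41 and 8.06 in HET oil, 7.69 and 8.26 in WT DM and 7.36 and 8.24 in WT oil pups. The medians were 0.24 in HET and 0.15 in WT pups for inhibitory neurons (5 of 6 higher in each, 1 and 2 called), 0.15 and 0.16 for microglia (8 and 9 of 10 higher, 0 and 2 called) and 0.03 and 0.08 for astrocytes (8 and 7 of 10 higher, 0 and 1 called). Across the 44 pups Angpt2 followed the meningeal list with r = 0.84 after removal of group means, and Tie1 followed it with r = 0.53. Their part in the result was not tested.

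The calls for DM at PND 5 held without either of the single pups named here, and changed with the litters left out. The WT oil pup female 5 was the lowest of its group in all 5 receptors, and the HET DM pup female 3 was the lowest of its group in Kdr, Flt1, Tek, Tie1 and Angpt2. Without the WT oil pup, Tie1 in WT pups differed by 0.24 (limma adjusted p = 0.022), and Angpt2 by 0.46 (adjusted p = 0.026). Without the HET DM pup, Tie1 in HET pups differed by 0.32 (adjusted p = 0.0059) and Angpt2 by 0.59 (adjusted p = 0.0074). Leaving out whole litters had more effect, and in HET pups no gene was called without litter A, B, C, E, M, O, P or Q, and 1 was called without F. In WT pups none was called without A or O, 1 without F, P or Q, and 4 without K or N.

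At 12 months, long after exposure had ended, the comparison asked whether DM left a trace. No gene of the 10 was called in HET mice, where 0.00647% of all genes passed, nor in WT mice, where 0% passed. At an unadjusted p under 0.05 there were 371 genes in HET and 399 in WT mice over the whole table, with Kdr, Flt1 and Vegfc among those of HET mice and Kdr among those of WT mice. All 10 genes had lower means in HET DM than in HET oil mice, except that Flt4, Tie1, Vegfb and Angpt1 turned higher when libraries were centred on endothelial markers. Their median was -0.15, against 0.00 over all genes.

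Kdr had 11.23, 11.49 and 11.74 in HET DM mice, against 11.39, 11.69 and 12.28 in HET oil mice. The groups overlapped, with 9 of 10 HET DM mice below the oil median. The difference was -0.26 (95% interval -0.43 to -0.09, unadjusted p = 0.0035, limma adjusted p = 1.00). It was lower in DM in each of the 4 batches of the labels, at -0.01 in batch 1, -0.10 in batch 2, -0.36 in batch 3 and -0.49 in batch 4. In WT DM mice Kdr had 11.11, 11.48 and 12.07, against 11.54, 11.74 and 11.88 in WT oil mice. The WT DM values spanned the whole range of the WT oil values, and the difference was -0.18 (95% interval -0.35 to -0.01, adjusted p = 1.00).

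Flt1 had 7.27, 7.57 and 7.66 in HET DM mice, against 7.55, 7.70 and 7.84 in HET oil mice. All 10 HET DM mice lay below the oil median, and the groups overlapped. The difference was -0.17 (95% interval -0.29 to -0.05, limma adjusted p = 1.00) in HET and -0.11 in WT mice. Vegfc, a ligand of VEGFR3, had 6.56, 6.85 and 7.06 in HET DM mice, against 6.69, 7.08 and 7.40 in HET oil mice. Here too all 10 HET DM mice lay below the oil median, with a difference of -0.19 (95% interval -0.35 to -0.03). In WT mice Vegfc differed by 0.03. The other 7 genes differed by -0.03 (Vegfb) to -0.21 (Angpt2) in HET mice and by -0.13 (Tie1) to 0.06 (Vegfb) in WT mice. In WT mice all 5 receptors had lower means in DM than in oil mice and 4 of 5 ligands did not, under each of the 4 scalings tried.

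Exact permutation tests of DM against oil litters within batches gave p = 0.0065 for Kdr, 0.0074 for Flt1, 0.0158 for Vegfc and 0.0446 for Flt4 in HET mice, each with an adjusted p over all genes of 1.00. With the 2 littermates averaged, Kdr differed by -0.22 (exact permutation p = 0.0044) and Flt1 by -0.14 (p = 0.0067), again with adjusted p of 1.00. The difference between HET and WT in the effect of DM was itself tested and called none of the 10 genes, where 0% of all genes passed and 335 had an unadjusted p under 0.05. It was -0.08 for Kdr (95% interval -0.32 to 0.16), -0.06 for Flt1 and -0.22 for Vegfc (unadjusted p = 0.049). When libraries were centred on endothelial markers it was positive for all 5 receptors, Kdr and Flt1 included. Kdr and Flt1 were therefore not shown to respond differently in the 2 genotypes.

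Vessel markers lay in the same direction at 12 months. In HET mice the median difference was -0.13 over the endothelial list (22 of 24 lower), -0.17 over the mural list (12 of 13 lower) and -0.21 over the meningeal list (10 of 10 lower), with none called. In WT mice it was -0.02, -0.11 and -0.07 in the same order of lists. The mean level of the endothelial list ranged between 7.65 and 8.19 in HET DM and 7.90 and 8.43 in HET oil mice. Its group medians were nearly equal, at 8.03 in HET DM and 8.04 in HET oil mice. In WT mice it ranged between 7.91 and 8.16 in DM (median 7.98) and 7.93 and 8.14 in oil (median 8.01). The mean level of the mural list ranged between 7.24 and 7.77 in HET DM (median 7.58) and 7.52 and 7.92 in HET oil mice (median 7.75). That of the meningeal list ranged between 6.38 and 7.43 in HET DM (median 7.04) and 6.67 and 7.60 in HET oil mice (median 7.25). Striatal markers were lower too, by a median of -0.12 in HET and -0.10 in WT mice (6 of 6 lower in each, none called), with mean levels between 8.55 and 9.55 in HET DM, 8.56 and 9.39 in HET oil, 8.70 and 9.56 in WT DM and 8.75 and 9.48 in WT oil mice. In WT mice the medians of the blood and choroid plexus lists were -0.30 (5 of 5 lower) and -0.32 (7 of 7 lower), and in HET mice -0.05 (4 of 5 lower) and 0.01 (3 of 7 lower). Their part in the result was not tested.

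**Figure D3:**
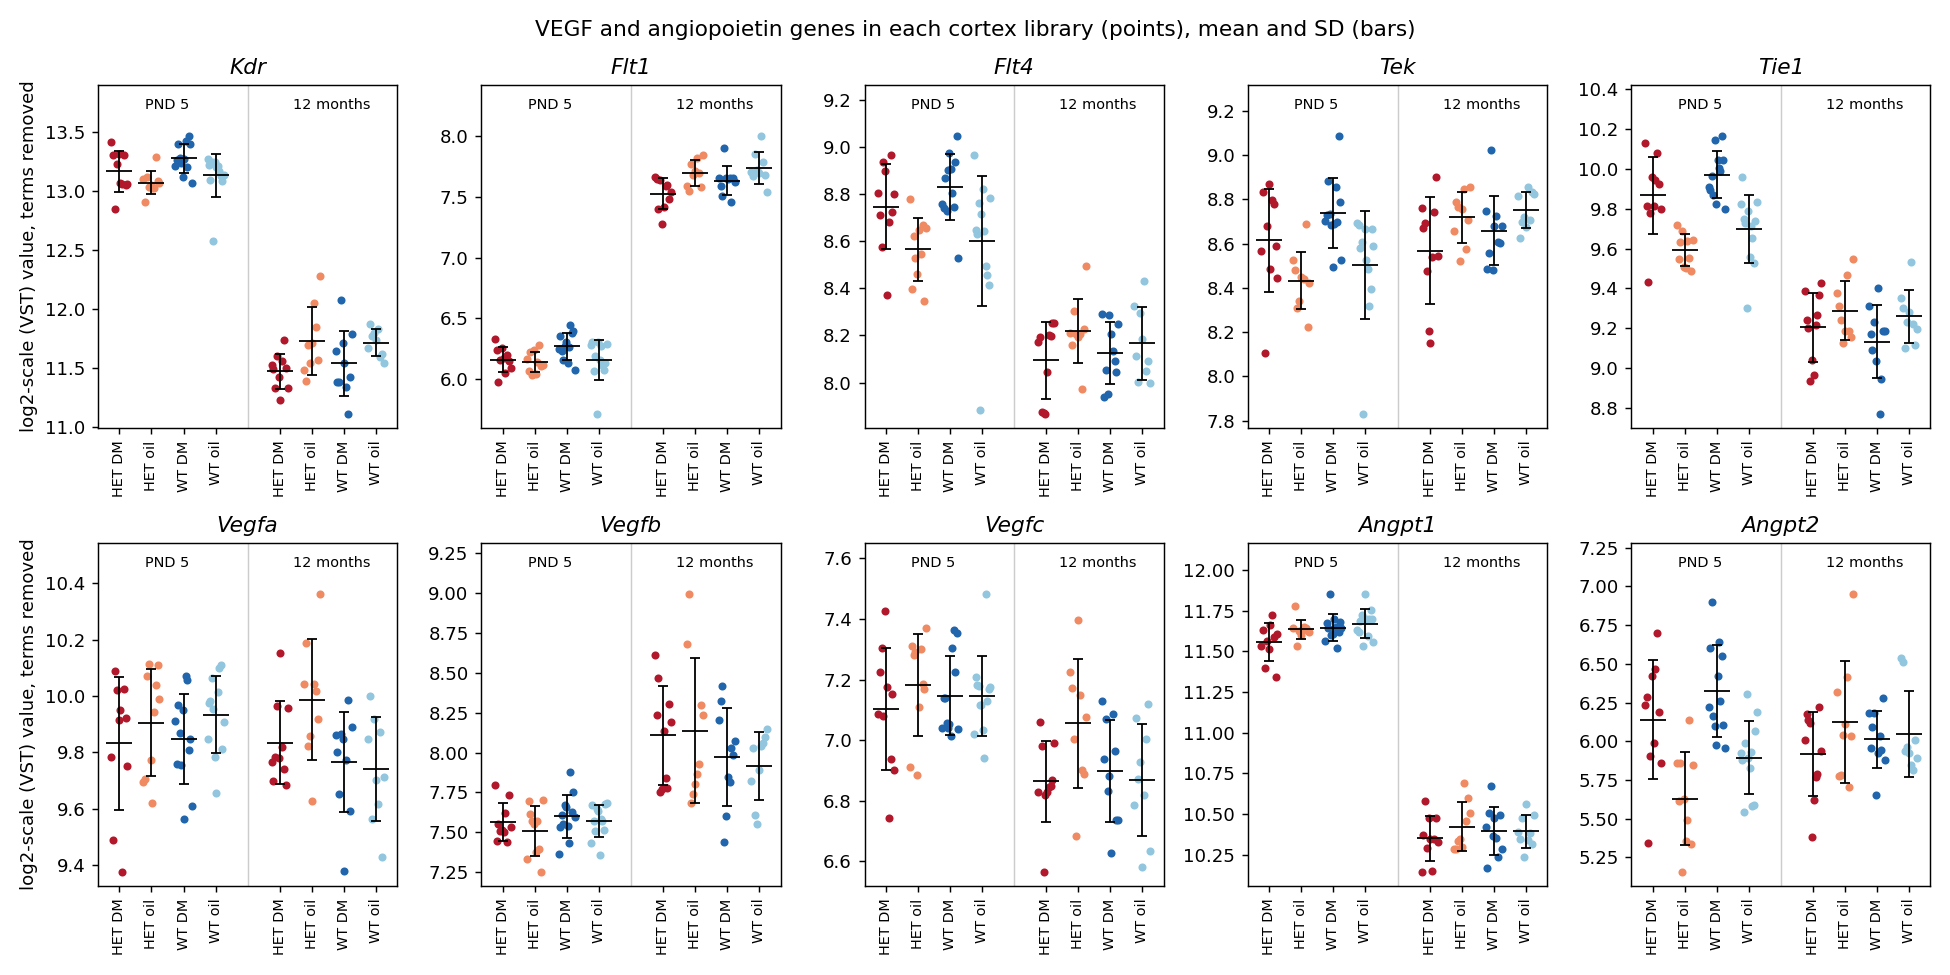
Values of each of the 10 genes in every library (vertical axes, log2 scale after adjustment, own scale for each gene), with HET DM, HET oil, WT DM and WT oil at PND 5 and then at 12 months. Points are single mice and bars are the group mean with its SD. Kdr and Angpt1 sit lower and Flt1 higher at 12 months than at PND 5 with no overlap, a separation that was not counted over all genes.

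Between the 2 ages, the effect of DM differed for Tie1 in WT mice. The DM minus oil difference at 12 months less that at PND 5 was -0.40 (95% interval -0.60 to -0.21, limma adjusted p = 0.039), the only one of the 10 genes called, against 0.447% of all genes. With litter as a random effect it was -0.39 (adjusted p = 0.397), a fit in which 0% of all genes passed and 1404 had an unadjusted p under 0.05. In HET mice the same contrast was -0.36 for Tie1 (adjusted p = 0.187) and -0.72 for Angpt2 (unadjusted p = 0.00043, adjusted p = 0.147). None of the 10 genes was called there, 0% of all genes passed and 1292 had an unadjusted p under 0.05. All 5 receptors had a negative contrast in both genotypes, although Flt1 in HET mice turned positive under endothelial centring. Leaving out litters or single pups one at a time ended the call of Tie1 in WT mice in 19 of 34 cases, that of WT oil female 5 among them.

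The genotype comparison at 12 months asked what loss of 1 copy of Chd8 did. The VEGF ligands, and not the receptors, held the larger differences in oil mice. Vegfa, the chief ligand of VEGFR2, had 9.63, 10.02 and 10.36 in HET oil mice, against 9.43, 9.71 and 10.00 in WT oil mice. The groups overlapped. The difference was 0.25 (95% interval 0.08 to 0.42, limma adjusted p = 0.138). None of the 10 genes passed, against 0.997% of all genes, and Vegfa and Vegfc were the 2 of the 10 with an unadjusted p under 0.05 (2386 genes in the whole table).

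Littermates shared batch and exposure, and pairing them narrowed the error of Vegfa, whose SE was 0.063 with litter as a factor and 0.086 without. Within the 9 oil litters the HET minus WT difference in Vegfa was 0.19 in litters D and E, 0.26 in H, -0.06 in I, -0.07 in K, 0.43 in N, 0.14 in R, 0.49 in S and 0.65 in T. It was positive in 7 of 9 litters (exact sign-flip permutation p = 0.0156, smallest possible 0.0039, adjusted over all genes 0.186). With litter as a random effect Vegfa passed (limma adjusted p = 0.0083), the 1 gene of 10 called, against 10.5% of all genes. With litter as a factor Vegfa (adjusted p = 0.0067) and Vegfb (adjusted p = 0.038) were called, 2 of 10, against 15% of all genes. The share of the 10 genes called was close to that of all genes in both fits, and nothing particular to the VEGF genes is read from it.

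Vegfa remained called in the factor fit without each of the 9 oil litters in turn, with adjusted p of 0.0019 to 0.031. Without batch 4, which held litters S and T, it differed by 0.15 (adjusted p = 0.124) and no gene was called. Vegfb, a ligand of VEGFR1, had 7.68, 7.93 and 9.00 in HET oil mice, against 7.55, 8.03 and 8.15 in WT oil mice. The median was lower in HET oil mice while the mean was higher by 0.22, and the littermate differences of litters D and E were 0.86 and 0.97 while the other 7 spanned -0.17 to 0.20. Without litter D the factor fit gave 0.14 (adjusted p = 0.249). Vegfc differed by 0.19 (limma adjusted p = 0.239), with 6 of 9 litters positive. The 5 receptors differed by -0.05 (Flt1) to 0.05 (Flt4).

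**Figure D4:**
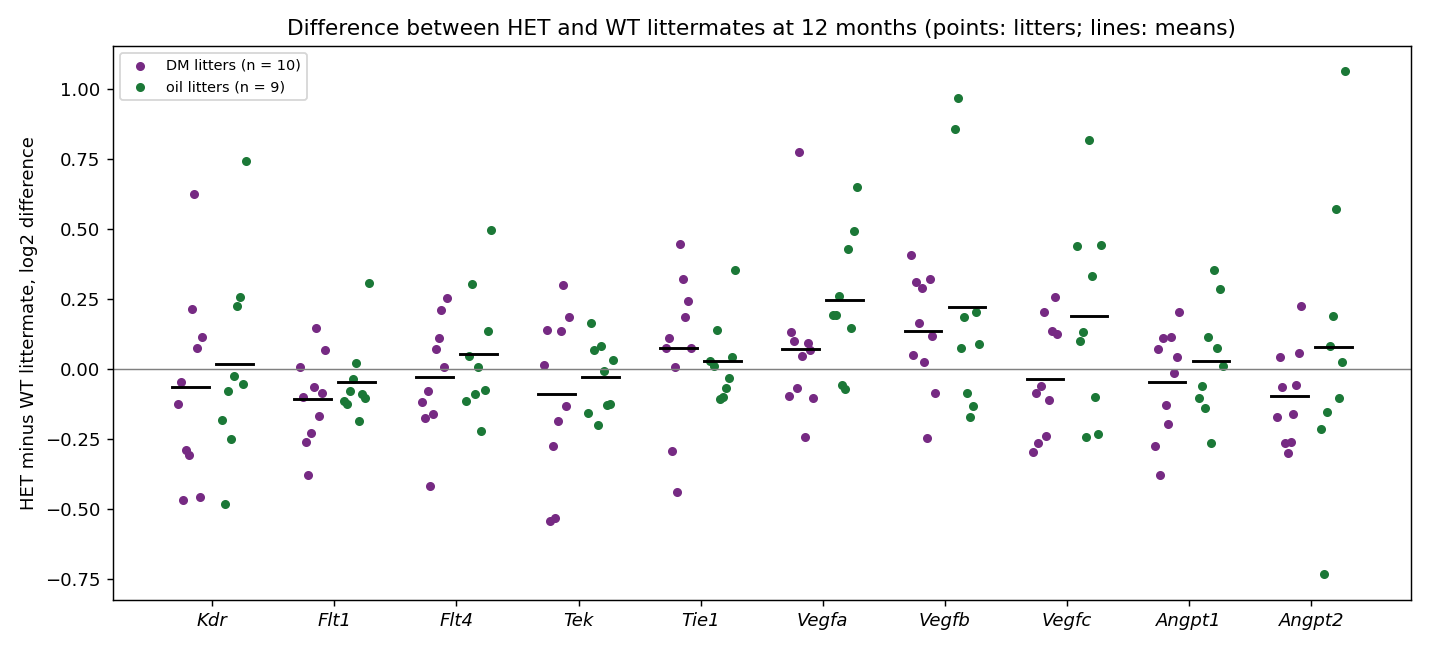
HET minus WT difference between littermates at 12 months for each gene (vertical axis, log2 difference), each point 1 litter, DM litters left of oil litters, with a line at the mean. In oil litters Vegfa is above 0 in 7 of 9 litters, and Vegfb holds 2 litters at 0.86 and 0.97 far above the other 7.

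In DM mice of 12 months none of the 10 genes was called between HET and WT, against 2.46% of all genes. Vegfa differed by 0.07 (95% interval -0.09 to 0.23), Vegfb by 0.13, Vegfc by -0.04 and Flt1 by -0.11 (unadjusted p = 0.066). No gene of the 10 had an unadjusted p under 0.05, while 2635 genes of the whole table did. Astrocyte markers were higher in HET oil than in WT oil mice by a median of 0.13 (9 of 10 higher, none called), with a mean level between 9.47 and 10.28 in HET oil and 9.37 and 9.84 in WT oil mice. Vegfb followed the astrocyte list with r = 0.91 across the 38 libraries of 12 months and the microglial list with r = 0.82, after removal of group means, whereas Vegfa followed them with r of 0.20 and 0.18. Their part in the result was not tested.

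At PND 5 none of the 10 genes was called between HET and WT, with 0.0971% of all genes passing in DM pups and 0.375% in oil pups. Angpt2 differed by -0.18 in DM pups and by -0.27 in oil pups (unadjusted p = 0.042 in oil), the 1 of the 10 genes under 0.05 unadjusted in oil, with none in DM. Meningeal markers lay lower with it, by a median of -0.71 between HET and WT DM pups and -0.51 between HET and WT oil pups (10 of 10 lower in each, none called), with the mean levels given for DM against oil, and their part in the result was not tested. Among all genes tested, 791 in DM and 1005 in oil pups were under 0.05 unadjusted. All 10 genes had lower means in HET DM than in WT DM pups, by -0.01 (Vegfa) to -0.18 (Angpt2), and 5 of them turned higher under endothelial centring. The effect of DM did not differ detectably between the genotypes, with 0 of 10 genes called, 0% of all genes passing and 197 of all genes under 0.05 unadjusted. For Tie1 that difference was 0.00 (95% interval -0.19 to 0.19) and for Angpt2 0.08 (-0.28 to 0.44). The genotype effect in oil mice did not differ detectably between 12 months and PND 5 either (0 of 10 called, 0% of all genes, 1054 under 0.05 unadjusted), with Vegfa at 0.28 (unadjusted p = 0.021, limma adjusted p = 0.705).

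At 18 months, in mice never dosed, none of the 10 genes was called between HET and WT, against 0.134% of all genes, and Flt4 and Vegfa were under 0.05 unadjusted, as were 2028 genes of the whole table. Flt4 had 8.43, 8.37, 8.45, 8.39 and 8.46 in the 5 HET mice, against 8.48, 8.54 and 8.59 (lowest, median and highest) in WT mice. Flt4 was thus lower in every HET than in every WT mouse, a separation that 2.42% of all genes also showed. The difference was -0.11 (95% interval -0.19 to -0.04, limma adjusted p = 0.216). Vegfa had 11.23, 10.77, 11.02, 11.05 and 11.00 in HET mice, against 10.73, 10.89 and 10.97 in WT mice. The groups overlapped through 1 HET mouse, and the difference was 0.15 (95% interval 0.01 to 0.29, adjusted p = 0.365). Meningeal markers were lower in HET mice by a median of -0.19 (9 of 10 lower, 1 called), with mean levels between 8.87 and 9.00 in HET and 8.88 and 9.28 in WT mice, and their part in the result was not tested. The other 8 genes differed by -0.09 (Kdr) to 0.06 (Angpt1).

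With age, Kdr, Flt1 and Angpt1 differed by more than in any other comparison. Between 12 months and PND 5, over the mean of the 4 genotype and exposure groups, 7 of the 10 genes were called, against 85.9% of all genes tested, so that being called is no distinction here. The 2 main VEGF receptors went in opposite directions. Kdr was lower at 12 months, with a log2 difference of -1.55 (SE 0.064), and Flt1 higher, with a difference of 1.47 (SE 0.044, limma adjusted p under 0.05 for both). Kdr lay between 11.11 and 12.28 over all 12-month mice and between 12.58 and 13.47 over all PND 5 pups, and Flt1 between 7.27 and 8.01 at 12 months and between 5.71 and 6.45 at PND 5. Neither gene overlapped between the ages in any of the 4 groups. How many of all genes separate in this way was not counted, so the lack of overlap, here and for the genes below, is not read as a distinction.

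Angpt1, the TIE2 agonist, was lower at 12 months, with a difference of -1.24 (SE 0.040) and no overlap in any group. Tie1 (-0.56) and Flt4 (-0.53) were also lower at 12 months, without overlap in the DM groups and with overlap in the oil groups. Vegfc was lower by a difference of -0.22 and Vegfb higher by 0.47, although Vegfb was -0.095 under endothelial centring. Tek (0.10), Vegfa (-0.05) and Angpt2 (0.03) did not pass. In single groups Tek was called higher in HET oil (0.29) and WT oil mice (0.25). It was -0.05 in HET DM and -0.08 in WT DM mice. Angpt2 was called higher in HET oil (0.50) and lower in WT DM mice (-0.31). These calls come from the fit without a litter term. The share of all genes called in single groups was not counted, and over the mean of the 4 groups it was 85.9%. All 12-month mice were male and from dissector 1, and the ages shared 3 of 4 batches. Endothelial markers had a median age difference of 0.20 (13 called higher and 8 lower of 24), so that the direction of Kdr and Angpt1 was not that of the list's median.

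Of 60 other genes of the pathway, 59 were tested at PND 5 and 12 months. In WT pups 2 of the 59 were called for DM in the fit without a litter term, against 4.56% of all genes. These were Epas1, a hypoxia-inducible factor of endothelium (0.23, limma adjusted p = 0.026), and Rasip1, a regulator of vascular lumen formation (0.20, adjusted p = 0.032). Both calls were lost with litter as a random effect (adjusted p = 0.332 for Epas1 and 0.368 for Rasip1). In HET pups none was called, against 1.02% of all genes, with 15 of the 59 under 0.05 unadjusted, against 15.5% of all genes. At 12 months none was called for DM in either genotype, against 0.00647% of all genes in HET and 0% in WT mice. In HET mice 7 of the 59 were under 0.05 unadjusted, against 2.4% of all genes, and in WT mice 1, against 2.58%. Between HET and WT oil mice of 12 months, Hif1a, the broad hypoxia-inducible factor that drives Vegfa, was lower (-0.20, adjusted p = 0.031) and Tal1, a hematopoietic and endothelial factor, higher (0.32, adjusted p = 0.038), 2 of 59 against 0.997% of all genes. With litter as a random effect 10 of the 59 were called, Hif1a and Tal1 among them, against 10.5% of all genes. Between HET and WT DM mice, Hif1a (-0.17, adjusted p = 0.030) and Foxo1, a transcription factor that restrains endothelial growth (-0.18, adjusted p = 0.028), were lower, 2 of 59 against 2.46% of all genes. With age 16 of the 59 were higher and 34 lower, against 85.9% of all genes called in either direction, among them Aplnr, the apelin receptor, at -5.08, Rasip1 at -1.61 and Pik3r1, the regulatory subunit of PI3K, at -0.90. None was called at 18 months, against 0.134% of all genes, with 9 of 60 under 0.05 unadjusted, against 12.4% of all genes.

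After removal of group means, the 10 pairs of receptors had r between 0.59 and 0.79 at PND 5, between 0.27 (Kdr with Flt4) and 0.69 at 12 months and, over 11 libraries, between -0.22 (Flt4 with Tek) and 0.84 at 18 months. At 12 months Flt4 had r of 0.27 with Kdr, 0.35 with Flt1, 0.33 with Tek and 0.55 with Tie1. Kdr correlated with Flt1 at r = 0.69 over the 38 libraries of 12 months and r = 0.77 over the 44 of PND 5, and at PND 5 with Tek at r = 0.79. Tek (0.84), Kdr (0.77), Tie1 (0.73) and Flt1 (0.70) followed the endothelial list at PND 5. At 12 months Tie1 (0.70) and Tek (0.66) still did, whereas Kdr had r = 0.21 and Flt1 r = 0.25. Vegfa had r = 0.08 with the endothelial list at 12 months and -0.15 at PND 5. These libraries share batches and litters, and the values are descriptions without a test.

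**Figure D5:**
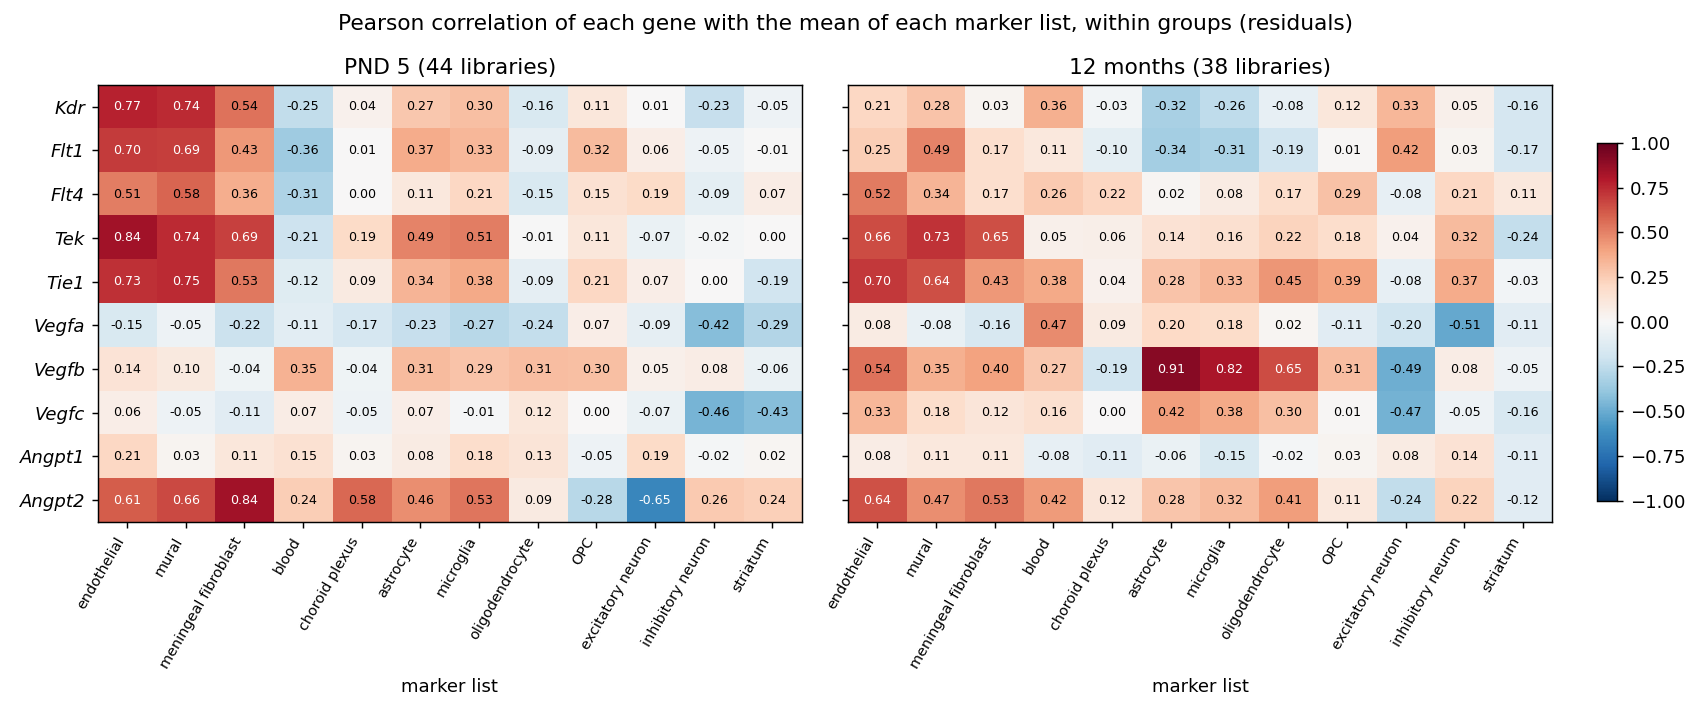
Pearson correlation of each of the 10 genes (down the page) with the mean of each marker list (across) over libraries, after removal of group means and technical terms, at PND 5 (44 libraries) and 12 months (38 libraries). Kdr, at 0.77 with the endothelial list, is dark at PND 5, and at 12 months Kdr, at 0.21, is paler than Tie1, at 0.70.

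Of all genes tested, those most like Kdr over the 38 libraries of 12 months were Cd93 (r = 0.76), an endothelial membrane glycoprotein, Abcc9 (0.69), a potassium channel subunit of pericytes, Flt1 (0.69), 9430083A17Rik (0.68) and Tex14 (0.66). At PND 5 the r with Kdr was 0.90 for Cd93, 0.58 for Abcc9 and 0.77 for Flt1, but -0.43 for 9430083A17Rik and 0.06 for Tex14. At 18 months it was 0.50, 0.31, 0.59, 0.36 and -0.55 in the same order of genes. Cd93 differed by -0.27 between HET DM and HET oil mice of 12 months (unadjusted p = 0.0047, limma adjusted p = 1.00), close to the -0.26 of Kdr. Those most like Vegfa were Neat1 (0.76), a nuclear long noncoding RNA, Taz (0.73), Pabpn1 (0.73), a poly(A)-binding protein, Metap1d (0.69) and Olfr1372-ps1 (0.68). At PND 5 the r with Vegfa was 0.83 for Taz and Pabpn1, 0.59 for Metap1d, 0.44 for Neat1 and -0.02 for Olfr1372-ps1. At 18 months it was -0.51 for Taz, -0.07 for Pabpn1, -0.27 for Metap1d, 0.31 for Neat1 and 0.38 for Olfr1372-ps1.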

How the data were processed

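Cortical RNA was measured in 93 libraries. Per the submitters' processing notes and the study's methods, the authors used cutadapt 1.12 for adapter trimming, STAR 2.5.2b for alignment (build mm10), Salmon for quantification and DESeq2 for the variance-stabilizing step. Values were deposited on a log2 scale, and the authors had removed linear terms for batch, sex, dissector and litter rank (82 libraries of PND 5 and 12 months) or for litter rank (11 libraries of 18 months) without the groups in the model. These terms had slopes of 0 in the deposited values and were fitted again together with the groups. Printed values are the deposited ones less these refitted slopes. No counts were used, so depth is unknown and no counting error is given.

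Genes were tested if no 2 libraries sharing batch, sex, dissector and litter held the same value (15450 genes, and 16421 at 18 months). limma 3.58.1 (R 4.3.3, lmFit and eBayes with trend) was fitted over all groups of a table, and p-values were adjusted by Benjamini and Hochberg over all genes tested, with 0.05 as threshold. Litters were the replicate block as an alternative, as a factor or as a random effect (statmod 1.5.0). The pairing came from the labels, which give each 12-month litter 1 HET and 1 WT mouse. Residuals of those littermates correlated with a median r of 0.33 (over 0.1 in 17 of 19 pairs), and the consensus correlation was 0.424. Litter means and littermate differences were also tested by exact permutation, two-sided. The values of DM and oil litters permuted were those less the slopes fitted with the observed groups. Those slopes were not fitted again in each permutation, so these p-values are exact only if the adjustment is taken as given. Littermate differences used the deposited values, in which the terms cancel. Samples were grouped by the labels, and p-values at 18 months measure only the spread between those animals.

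All 10 genes were named in every comparison. Other pathway genes were named if called, at most 4 by smallest adjusted p, as were Chd8 and the 5 genes most correlated with Kdr and with Vegfa. One gene that this rule names is not reported here. The members and lists were chosen with earlier results of these data known. Alternatives covered the filter, the variance trend, covariates, block, scaling, sample weights and samples left out. On simulated data the mean estimates of the fits came close to the known differences, whereas false calls, also those without a litter term, were not judged. Angpt4, Otx2 and Mobp were listed but did not pass the filter in every table.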

Additional observations from a re-analysis of the deposited data

Results flagged for a closer look

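Of 80 pairs of a gene and a group of 4 to 10 samples, 6 held a library set apart from the rest of its group, where chance gives about 5% of pairs. In 12-month WT DM mice, replicate 3 had Flt1 at 7.90 (next highest 7.66) and Tek at 9.02 (next 8.75). In 12-month HET DM mice, replicate 3 had Vegfc at 6.56 (next lowest 6.82). At PND 5, HET DM female 3 had Tie1 at 9.43 (next lowest 9.78), and HET oil female 2 had Angpt1 at 11.78 (next highest 11.65). At 18 months, WT replicate 3, which carries that number in its description and number 4 in its title, had Flt1 at 10.61 (next lowest 11.04). The DM effect on Tie1 in WT mice differed between the ages by a test of the difference itself (-0.40, limma adjusted p = 0.039) and did not pass with litter as a random effect (-0.39, adjusted p = 0.397).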

How the results depend on the processing

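Calls at PND 5 depended on the settings, and the cause was not tested. Of the 10 genes, 2 were called for DM in HET pups as reported, 1 with a mean of at least 6, without the variance trend, with endothelial centring or without batch 3, and 0 with no filter, with groups only, with median centring, with quantile normalization, without batch 1 or 2, or in males or females alone. In WT pups 2 were called as reported, 1 with groups only, after quantile normalization or without batch 1 or 3, 4 with sample weights, and 0 without batch 2 or in males or females alone. For the DM effect in WT mice by age, 1 was called as reported, 2 with sample weights, and 0 with no filter, groups only, quantile normalization, without batch 2, 3 or 4, or in PND 5 males or females alone. For that in HET mice 0 were called as reported, 2 with endothelial centring and 3 with sample weights. Leaving out litters or single pups gave 0 to 2 (HET pups), 0 to 4 (WT pups), 0 to 2 (HET by age), 0 to 1 (WT by age, lost in 19 of 34 sets, that without WT oil female 5 included) and 7 throughout for age.

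With the replicate block as a random effect, 0 genes were called for DM in HET pups, in WT pups and by age in WT mice, and 1 between HET and WT oil mice of 12 months (0 as reported). The factor block gave 2 there, 1 to 3 without single oil litters (0 to 3 over all sets left out) and 0 without batch 4. The block changed no other count. The fits without single pups, and the block without oil litters or batch 4, were chosen after seeing the data.

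The age difference reversed for Tek (-0.47), Vegfb (-0.095) and Angpt2 (-0.54) with endothelial centring, which moved the median of all genes by -0.56, and for Angpt2 (-0.35) after quantile normalization. Sign changes of age differences that passed in neither fit were Vegfa (0.054) after quantile normalization and Angpt2 (-0.021) after median centring. The same centring moved the median of all genes by 0.14 for DM in HET mice of 12 months and by -0.13 in HET and -0.15 in WT pups. In females alone age and sex cannot be told apart, so that age was not fitted. All other counts stayed at 0, and 0 calls at 18 months rest on 11 libraries.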
